A study of Mus musculus with 267 samples.

Results

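PPARg binding before and after IL-4 was compared in bone marrow-derived macrophages of the 4 strains other than C57, namely BALB (the strain BALB/cJ), PWK (PWK/PhJ), NOD (NOD/ShiLtJ) and SPRET (SPRET/EiJ). In each strain the PPARg peak list of untreated cells (basal) was overlapped with the list made after 24 hours of IL-4. A 24 h peak that touched no basal peak by at least 1 bp was called gained, a peak present in both lists was called shared, and a basal peak without a 24 h partner was called lost. The 8 lists held 186045 peaks, out of 1958714 peaks in the 54 transcription factor lists of the series. All cells came from wild-type inbred female mice of 8 to 12 weeks, grown from bone marrow with M-CSF for 7 days, and IL-4 was given at 20 ng/mL. Each strain and condition had 2 PPARg ChIP-seq libraries, deposited as 1 list of peaks found in both, so that 16 of the 267 samples of the series are behind the lists. The study's methods call these libraries biological replicates without saying whether each came from its own mouse or culture. The same holds for the H3K27ac libraries described below, from which all p-values come. Therefore these p-values measure only the spread between the H3K27ac libraries. The peak lists themselves have no replicates, and no test was made between lists. The depth of the PPARg libraries is unknown, and the intervals given for shares of peaks cover counting error only.

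The change of the active chromatin mark H3K27ac was read from each strain's table of open chromatin regions of 1000 bp, with 2 basal and 2 24 h libraries per strain. The label of the cells was checked in the same tables. A region lay at the start of 8 of 8 macrophage marker genes in BALB, NOD and PWK and of 7 of 8 in SPRET, where Csf1r had none. Their summed H3K27ac was 2286 to 3577 normalized tags in basal cells and 1522 to 2126 at 24 h. Markers of T cells (0 of 4) and mast cells (0 of 3) had no region in any strain. The adipocyte marker Plin1 had one, with 0.415 to 2.36 normalized tags in basal cells, while Adipoq and Lep had none. The B cell marker Ms4a1 had a region in all 4 strains, with 71.1 to 122 normalized tags in basal cells of BALB, PWK and SPRET and 62.5 to 103 at 24 h. Of the neutrophil list, S100a8 had one in all 4 strains and Elane in SPRET only, with 117 to 239 and then 90.8 to 177. The dendritic cell marker Zbtb46 had 2.36 normalized tags in BALB, 0.83 in NOD, 1.18 in PWK and 13.1 in SPRET before IL-4, and 6.86, 5.30, 21.4 and 46.0 after it. The fibroblast marker Col1a1 had a region in NOD, PWK and SPRET, at 0.83 to 2.7 and then 5.19 to 7.01. The part of such cells in the results was not tested. Normalized tags are reads scaled to 10000000 reads per library.

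PPARg is a nuclear receptor that binds DNA as a heterodimer with the retinoid X receptor RXR and is activated by fatty acid ligands. The pair recognizes a direct repeat of the half-site AGGTCA with 1 base between the copies, called DR1. In fat cells PPARg drives lipid storage, and in macrophages it is known for genes of lipid uptake, such as Cd36 and Fabp4, and for its induction by IL-4 through STAT6.

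DR1 sites in peaks gained in every one of the 4 strains are shown first, because these peaks are where the receptor's own recognition sequence and a gain common to all strains meet. The list holds sites from the best-ranked such loci with a match of at most 1 mismatch over the 12 half-site positions. Of the 364 loci gained in all 4 strains, 2.75% had such a match, and 11.5% had one with at most 2 mismatches. Among all gained peaks of a strain, at most 1 mismatch was found in 1.21% (PWK) to 4.35% (NOD). In the ranking of these loci by score, the sites below stood at places 9 (Spp1) to 242 (AI413582). Sequences are RefSeq reference sequence of GRCm38 (mm10), which is C57BL/6J, read 5′ to 3′ on the strand of the match. The half-sites are in capitals, and the spacer and 5 flanking bases on each side are in lower case. The bases carried by the 4 strains were not read.
Spp1: tgtggAGGCCAgAGGTCAcatgt
Itgax: ggcagAGCTCAgAGGTCAgtggt
Hmgn2: ccatgAGGTCAaATGTCAgtaca
Itpkb: aatctTGGTCAgAGGTCAgcgga
Nppc: gccagAGGTCAgAGGACAacttt
Ube2q2: tgtggAGGTCAgAGGTCAgagtg
AI413582: caaccAGGTCAtGGGTCAtcctt

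The site near Ube2q2 (chr9:55113704-55113716, plus strand, intergenic, 35.1 kb from the gene start) had no mismatch. The site near Spp1, the gene of osteopontin, lay at chr5:104428785-104428797 on the minus strand, intergenic and 6.37 kb from the gene start. Its gained peak had a deposited score of 20 in BALB, 31 in NOD, 24 in PWK and 13 in SPRET. The site in an intron of Itgax, which encodes the integrin CD11c, was at chr7:128121793-128121805 on the minus strand, and its peak scored 12, 19, 16 and 9 in the same order. The other single-mismatch sites were near Hmgn2 (chr4:133941585-133941597, minus, intergenic), in an intron of Itpkb (chr1:180343299-180343311, minus), near Nppc (chr1:86630811-86630823, plus, intergenic) and in an exon of AI413582 (chr17:27564071-27564083, minus). Genes are named as the nearest protein-coding start in GENCODE vM21.

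The PPARg list grew with IL-4 in BALB, NOD and PWK but not in SPRET. BALB had 6524 basal and 23578 24 h peaks, a ratio of 3.61. NOD had 12529 and 40426, a ratio of 3.23, and PWK had 18402 and 46415, a ratio of 2.52. SPRET had 19684 basal and 18487 24 h peaks, a ratio of 0.939. Thus SPRET had the longest basal list and the shortest 24 h list of the 4 strains. Gained peaks made up 78.9% of the 24 h list in BALB (18605 peaks, exact 95% interval 78.4 to 79.4), 74.3% in NOD (30042, 73.9 to 74.7), 70.0% in PWK (32499, 69.6 to 70.4) and 38.9% in SPRET (7186, 38.2 to 39.6). In C57, for comparison, the lists held 7627 and 39088 peaks and 84% were gained. Lost peaks were 23.8% of the basal list in BALB (1551), 17.1% in NOD (2145), 24.4% in PWK (4486) and 42.6% in SPRET (8383). SPRET was thus the only one of the 4 strains with more lost than gained peaks. The list lengths also depend on how many peaks passed the reproducibility filter in each pair of libraries. When both lists of a strain were cut to the same number of best peaks, the gained share was 45.1% in BALB, 39.1% in NOD, 53.1% in PWK and 40.4% in SPRET, so most of the distance between SPRET and the other 3 strains was gone.

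**Figure D1:**
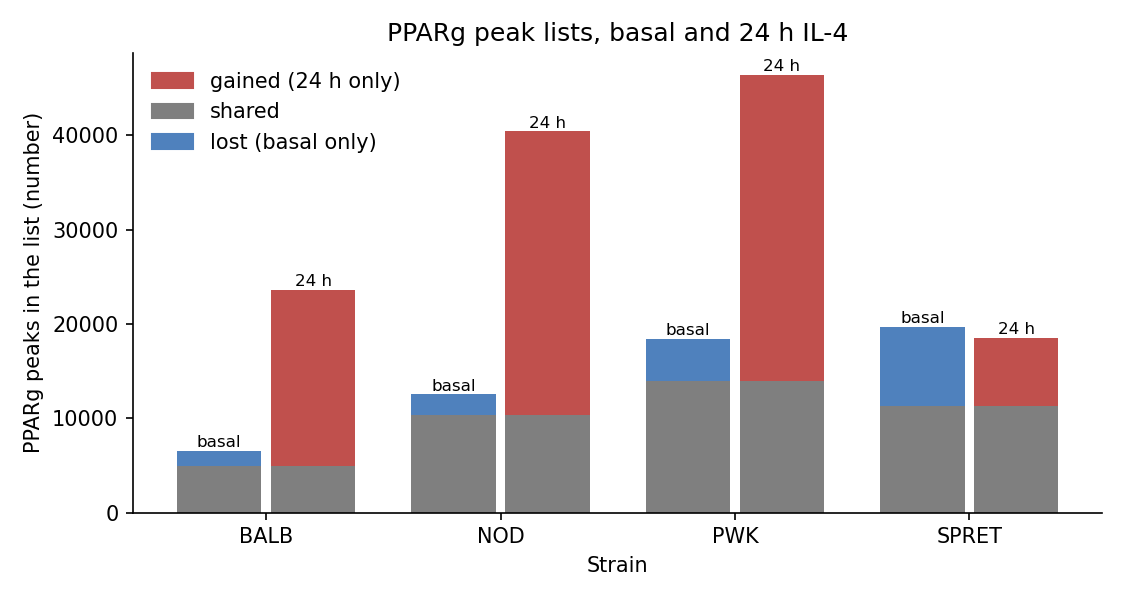
Number of PPARg peaks (vertical axis) in the basal and 24 h IL-4 list of each strain, with the bars split into shared, lost and gained peaks; each bar is 1 list, so there are no error bars. The 24 h list is longer than the basal list in BALB, NOD and PWK, and SPRET has 19684 basal and 18487 24 h peaks.

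Gained peaks were weak compared with shared peaks. Their median deposited score was 9 in BALB, 10 in NOD, 10 in PWK and 7 in SPRET, while that of shared peaks at 24 h was 22, 28, 17 and 12. Lost peaks had basal medians of 7, 9, 8 and 7. The lowest score kept in the 24 h lists was 7, 7, 6 and 6, so many gained peaks lay just above the limit of their list. Among the 1000 best peaks of the 24 h list, 5.3% were gained in BALB, 2.8% in NOD, 2.3% in PWK and 0.7% in SPRET. The strongest PPARg sites after IL-4 were therefore nearly all present in the basal list.

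Gained peaks lay mostly in introns and between genes. Promoters, taken as within 1000 bp of a transcript start, held 19.5% of gained peaks in BALB, 19.3% in NOD, 15.9% in PWK and 19.1% in SPRET, against 32.6%, 28.4%, 29.8% and 30.8% of all open regions. Introns held 43.0 to 45.4% and intergenic sequence 31.5 to 36.1%. The median distance to the nearest gene start was 21.8 to 22.9 kb. In BALB, NOD and SPRET 64.2%, 64.2% and 60.6% of gained peaks fell in an open region of the strain, but in PWK only 37.1% did. For shared peaks this share was 80.1%, 83.6%, 73.7% and 71.8% in BALB, NOD, PWK and SPRET.

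When overlapping peaks of the 8 lists were joined, 83256 loci resulted, and 67033 of them were gained in at least 1 strain. Most were gained in a single strain (50279, 75%). A further 13271 (19.8%) were gained in 2 strains, 3119 (4.65%) in 3 and 364 (0.543%) in all 4. In contrast, 2745 loci were shared between basal and 24 h in all 4 strains, and 7362 had a 24 h peak in all 4. Loci lost in all 4 numbered 2. A locus gained in 3 strains often had another history in the fourth. Of 2239 loci gained in BALB, NOD and PWK, SPRET gained 16.3%, already bound 22.2% in both lists, lost 8.26% and had no peak at 53.3%. Of 533 loci gained in the other strains, NOD gained 68.3% and lacked a peak at only 10.9%. BALB lacked a peak at 50.1% of 777 such loci, and PWK at 32.5% of 1026. Peaks gained at loci with no PPARg peak in any other of these strains were 15.1% of the gained peaks in BALB (2815), 41.2% in NOD (12383), 64.4% in PWK (20929) and 38.0% in SPRET (2729).

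**Figure D2:**
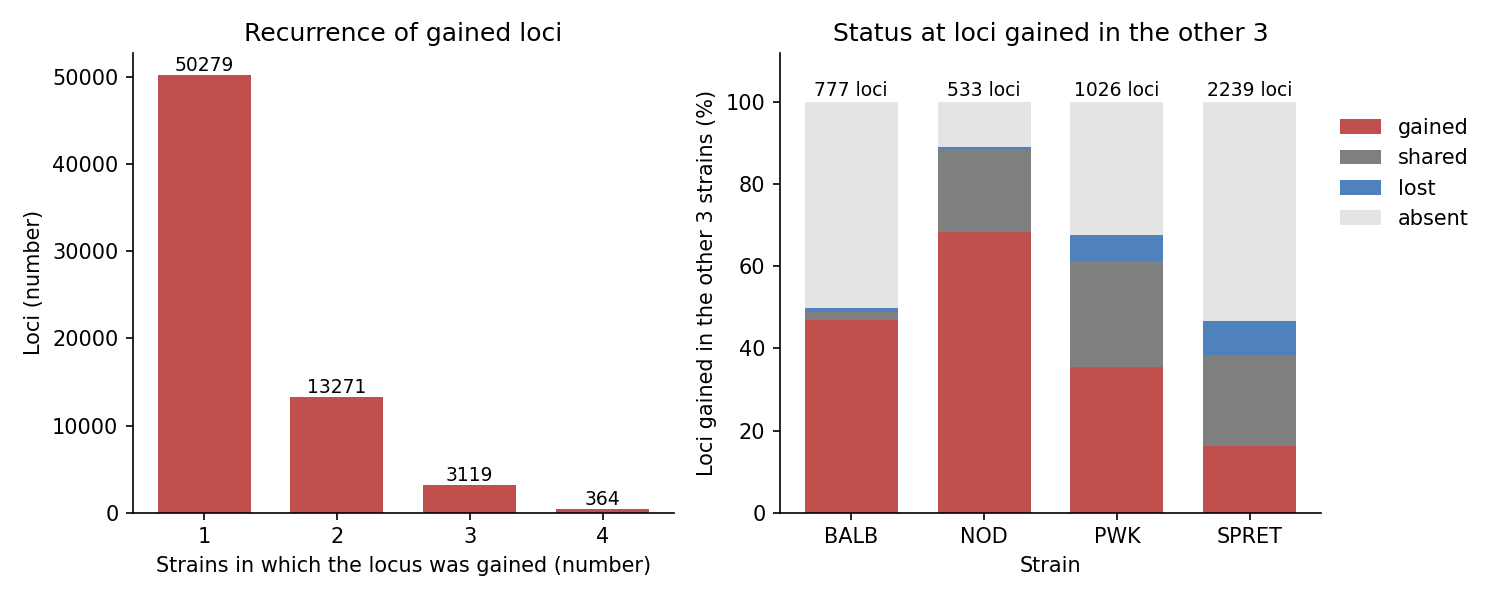
Sharing of gained PPARg loci between strains: number of loci by how many strains gained them, and the status in each strain (gained, shared, lost or no peak, percent) of loci gained in the other 3. Of 67033 gained loci 75% were gained in 1 strain, and SPRET has no peak at 53.3% of the loci gained in the other 3.

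The 6 loci gained in all 4 strains with the best mean rank of score lay near Fads3, Ankrd55, Mpp6, Nrp1, Coro2b and Tlr4. The first, in an intron of the fatty acid desaturase family gene Fads3 (chr19:10021967-10022184, mm10), scored 48 in BALB, 105 in NOD, 44 in PWK and 30 in SPRET. A locus in an intron of Ankrd55 (chr13:112323557-112323778) scored 44, 129, 60 and 20. The locus nearest Mpp6 (chr6:50075417-50075634, 34.7 kb from its start) scored 37, 87, 29 and 22. NOD had the highest score of the 4 strains at each of these 3 loci and SPRET the lowest. The deposited tag counts gave another order for SPRET at Fads3 and Mpp6. They were 103, 255, 125 and 128 at Fads3 and 81.2, 191, 88.1 and 92 at Mpp6 in BALB, NOD, PWK and SPRET. At Ankrd55 they were 88.4, 277, 186 and 79.9. Scores and counts of different strains come from libraries of unknown depth, so no order of binding strength is drawn from them. The other 3 were in an exon of the semaphorin co-receptor gene Nrp1 (chr8:128427100-128427384), an intron of the actin-binding coronin gene Coro2b (chr9:62531461-62531686) and an intron annotated 24.5 kb from the start of Tlr4, the lipopolysaccharide receptor (chr4:66851914-66852295). Their NOD scores were 77, 55 and 41 and their SPRET scores 12, 10 and 20. None of the 6 had a DR1 match with at most 2 mismatches.

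The best gained peak of BALB was in an intron of Filip1l (chr16:57391428-57391628, score 186). The same place was the best lost peak of PWK (chr16:57391509-57391709, score 148), so that the locus entered the list in BALB and left it in PWK, while in NOD it was shared. In NOD the best gained peak was in an intron of Tex9 (chr9:72485560-72485760, score 210). It had a DR1 match with 2 mismatches, carried peaks of EGR2, STAT6, PU.1 and C/EBPb at 24 h and, of these 4, only EGR2 in basal cells. In PWK the best gained peak was at the promoter of the cation channel gene Trpm8 (chr1:88277590-88277790, score 126), and in SPRET in an intron near Rpusd4 (chr9:35305363-35305563, score 67). The Rpusd4 peak was also the best gained in SPRET without a 24 h peak in another of these strains. The corresponding strain-limited peaks were nearest Samd9l in BALB (score 102), Mgrn1, a ubiquitin ligase gene, in NOD (61) and Klrb1b, a killer cell lectin-like receptor gene, in PWK (72). At the Filip1l peaks of BALB and PWK, STAT6, PU.1 and C/EBPb had peaks both in basal cells and at 24 h. The same held for the Trpm8, Rpusd4 and Samd9l peaks. Whether the signal at such places is specific to PPARg was not tested.

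Known PPAR target genes were among the strongest shared peaks. The best shared peak of NOD was at Angptl4, an inhibitor of lipoprotein lipase (chr17:33779225-33779425, score 290), and that of PWK was 13.6 kb from Pdk4, a kinase that restrains glucose oxidation (chr6:5509831-5510031, score 188). Each had a DR1 match with 2 mismatches. The best shared peak of BALB was nearest Il6st, the gp130 receptor gene (chr13:112439985-112440185, score 214). That of SPRET lay at Gm10800 (chr2:98667047-98667247, score 283) with a deposited tag count of 9817, against a median of 50.9 for shared peaks of that 24 h list. The best lost peaks of BALB and NOD were in an intron of Rab20 (33) and nearest Gm8797 (174). STAT6, PU.1 and C/EBPb had peaks both in basal cells and at 24 h at the Il6st, Gm10800 and Gm8797 peaks.

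DR1 was then searched in the 200 bp of each peak on both strands of the reference sequence, as AGGTCA, 1 base, AGGTCA with at most 2 mismatches over 12 positions. Gained peaks held it in 11.4% of cases in BALB, 12.7% in NOD, 4.93% in PWK and 10.2% in SPRET. The central 200 bp of all open regions held it in 2.89%, 2.85%, 3.09% and 2.88%. Shared peaks held it more often than gained peaks in every strain, in 18.6%, 17.5%, 13.1% and 15.1%. Lost peaks had it in 6.19%, 7.32%, 12% and 9.96%. PWK was thus the strain whose gained peaks were nearest to the level of open regions, and its lost peaks held DR1 more often than its gained peaks. With both half-sites exact, 130, 280, 58 and 36 gained peaks matched.

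Motifs of other macrophage factors were not more frequent in gained peaks than in open regions for PU.1 in BALB, NOD and PWK, for AP-1 in BALB and PWK and for EGR in all 4 strains. The PU.1 core AGGAAGT was in 18.8% of gained peaks in BALB, 19.3% in NOD, 9.95% in PWK and 22.1% in SPRET, against 24.0%, 24.0%, 22.8% and 20.4% of open regions. The AP-1 motif TGANTCA was in 16.5%, 17.6%, 10.6% and 16.9%, against 16.6%, 16.9%, 18.2% and 14.7%. The EGR motif GTGGGCG was in 2.03 to 2.80% of gained peaks and in 3.68 to 4.28% of open regions. The STAT6 motif, TTC and GAA 4 bases apart, was in 7.13%, 7.50%, 6.46% and 9.67% of gained peaks and in 4.98 to 5.41% of open regions. A C/EBP motif, TTGC and AA 2 bases apart, was in 13.2%, 13.8%, 10.1% and 14.6% against 11.2 to 11.7%. Both strands were searched, a window could hold several motifs, and overlaps between matches were not examined. These are matches of letters that were not shown to be bound.

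**Figure D3:**
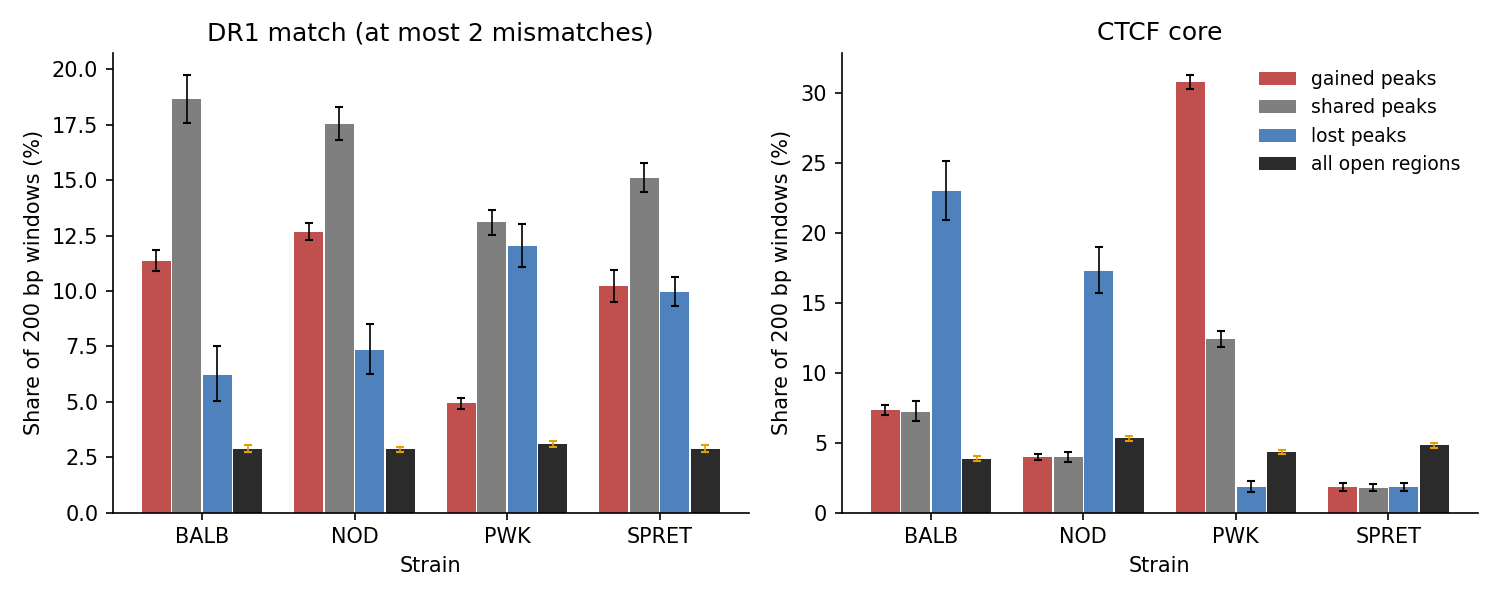
Percent of 200 bp windows with a DR1 match (at most 2 mismatches) and with the CTCF core among gained, shared and lost PPARg peaks and all open regions of each strain; bars are shares with exact 95% intervals. DR1 is in 4.93% of PWK gained peaks against 10.2 to 12.7% in the other strains, while the CTCF core is in 30.8% of them.

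The core of the motif of CTCF, the insulator protein that anchors chromatin loops, was searched as CCA, 2 bases, AG, 2 bases, GGC on both strands. This motif was chosen after the PWK sequences had been seen. It was in 30.8% of the peaks gained in PWK (10003 peaks), but in 7.33% in BALB, 3.95% in NOD and 1.81% in SPRET, while open regions held it in 3.85 to 5.32%. The gained peaks were also put into 4 groups of equal size by score. In PWK the core was in 44.3% of the best group and in 19.9% of the weakest, while DR1 was in 2.77% and 6.94%. In BALB the order was the other way, with DR1 in 14.3% of the best and 9.67% of the weakest group and the CTCF core in 3.44% and 9.05%. Lost peaks had the core in 23% of cases in BALB and 17.3% in NOD, but in 1.83% in PWK and 1.80% in SPRET. Over whole lists it was in 11.2% (BALB), 6.22% (NOD), 9.40% (PWK) and 1.78% (SPRET) of basal peaks. At 24 h the shares were 7.31%, 3.96%, 25.3% and 1.79%. The lists of EGR2, STAT6, PU.1 and C/EBPb in these strains had it in 0.949 to 3.15% of peaks. What moved the share of this motif between conditions was not tested.

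Most BALB and NOD peaks with the CTCF core overlapped PWK peaks, but most PWK gained peaks with the core had no partner elsewhere. Of the 10003 PWK gained peaks with the core, 12.9% overlapped a BALB peak, 11.5% a NOD peak and 2.00% a SPRET peak. For PWK gained peaks without the core these shares were 20.5%, 32.5% and 16.8%. Of the 356 lost BALB peaks with the core, 95.5% overlapped a PPARg peak of PWK, and 68.8% overlapped one that PWK gained. Of the 371 lost NOD peaks with the core, 95.7% overlapped a PWK peak and 65.8% a gained one. Gained peaks with the core still outnumbered lost ones with it, at 1364 against 356 in BALB and 1188 against 371 in NOD. Of the 1364 BALB gained peaks with the core, 90.8% overlapped a PWK peak, against 57.1% of those without it. For overlap with a NOD peak the order was the other way, 38.4% against 71.3%. PWK-only gained peaks had the core in 37.8% and DR1 in 3.03% of cases, and 24.6% of them lay in an open region. Gained PWK peaks at loci also bound in another strain had the core in 18%, DR1 in 8.36% and an open region in 59.7%. The PWK results were also taken without the peaks that held the core, a choice made after seeing the data. Of the 34688 PWK 24 h peaks left, 64.9% (22496) were gained, and the ratio of the 24 h to the basal list was 2.08. DR1 was then in 6.25% of the gained PWK peaks and an open region at 45.4%, and 57.8% had no PPARg peak in another strain. PWK kept the lowest share of DR1 and of open regions among the gained peaks of the 4 strains. In BALB the DR1 share without the core was 11.9%, and in NOD and SPRET 13% and 10.2%. Repeats covered more than 50% of the window for 13.6% of PWK gained peaks, against 5.72 to 6.58% in the other strains.

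The peaks of 4 other factors at 24 h were next overlapped with the PPARg peaks. PU.1, the ETS factor that maintains macrophage enhancers, was at 55.7% of gained peaks in BALB, 57.1% in NOD, 25.4% in PWK and 61.2% in SPRET. C/EBPb was at 33.3%, 37.9%, 18.8% and 34.0%. STAT6, the factor activated by the IL-4 receptor, was at 28.7%, 27.2%, 18.5% and 51.7%. EGR2, a zinc finger factor induced by IL-4 through STAT6, was at 28.3%, 14.4%, 6.58% and 33.2%. PWK had the lowest share for each of the 4 factors, and SPRET the highest for 3 of them. Without the peaks that held the CTCF core the PWK shares were 32.9% for PU.1, 24.4% for C/EBPb, 25.7% for STAT6 and 8.99% for EGR2, which were still the lowest. Of all open regions, 79.5% in BALB, 79.4% in NOD, 70.7% in PWK and 69.5% in SPRET held a PU.1 peak and 40.4%, 44.7%, 44.3% and 34.1% a C/EBPb peak. For STAT6 the open regions had 28.6%, 28.1%, 49.8% and 48.9%, and for EGR2 44.2%, 20.3%, 21.5% and 43.1%. Gained peaks thus had these factors no more often than open regions did, apart from STAT6 in BALB and SPRET, but open regions span 1000 bp and peaks 200 bp. Gained peaks with none of the 4 were 32% in BALB, 32.2% in NOD, 64.7% in PWK (55.2% without the core) and 25.8% in SPRET. Those with all 4 were 8.51%, 4.38%, 2.41% and 12.6%. Shared peaks had each factor more often than gained peaks in every strain, for example EGR2 at 31.3%, 16.5%, 15% and 37.6%. The lengths of the lists differ and bear on these shares. The EGR2 list went from 28842 to 37104 peaks in BALB, from 25341 to 16604 in NOD, from 6201 to 14919 in PWK and from 12301 to 39458 in SPRET.

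Factors that appeared at the same places with IL-4 differed by strain. An EGR2 peak present at 24 h but not in basal cells was at 21% of gained PPARg peaks in SPRET, but at 7.35% in BALB, 4.51% in PWK and 1.52% in NOD. For STAT6 this share was 17.5% in SPRET, 12.7% in BALB, 11.4% in PWK and 10.7% in NOD. For C/EBPb it was highest in NOD (18.9%) and BALB (17.2%) and about 5% in PWK (5.28%) and SPRET (5.11%). Most PU.1 peaks at gained sites were already in the basal list, and 2.69 to 10.1% of gained peaks had one at 24 h only.

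Gained PPARg peaks were frequent around genes in general. Of 21924 protein-coding genes, 58.1% had a gained peak within 50 kb of the start in BALB, 67.2% in NOD, 76.6% in PWK and 34.1% in SPRET. Beside this background, 131 listed genes of macrophage activation and lipid metabolism had one at 120 genes in BALB, 127 in NOD, 124 in PWK and 98 in SPRET. Without the peaks that held the CTCF core, 68.2% of all genes and 118 listed genes had one in PWK. In all 4 strains, 91 listed genes (69.5%) had a gained peak, against 6046 of all genes (27.6%). The listed genes are largely genes active in macrophages, and all genes include silent ones, so nothing particular to these pathways is drawn from the difference. The median number of gained peaks per listed gene was 3, 5, 4 and 1 in BALB, NOD, PWK and SPRET, against 1, 2, 2 and 0 over all genes.

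Among nuclear receptors and their cofactors, 11 of 16 genes had a gained peak in BALB, 15 in NOD, 13 in PWK and 8 in SPRET. Pparg itself, Ppard and the coactivator genes Ncoa1, Ncoa4 and Ppargc1b were among those with one in all 4 strains. Ncoa2, Ncoa3, Rxra, Rxrb and Nr1h3, which encodes the oxysterol receptor LXRa, had one in 3. Ppargc1a, the gene of a coactivator best known from liver and muscle, had none in any strain.

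In fatty acid uptake, storage and oxidation the counts were 23, 24, 25 and 17 of 25 genes. The 16 with one in every strain included the scavenger receptor gene Cd36, the fatty acid binding protein genes Fabp4 and Fabp5, the lipases Lpl and Lipa, and the triglyceride synthesis genes Dgat1 and Dgat2. They also included Angptl4, the inhibitor of lipoprotein lipase. Further members were Acsl1, Slc25a20, Acadvl, Hadha, Hadhb, Ech1 and Ucp2, which act in fatty acid activation, transport and oxidation or in mitochondrial uncoupling. Cpt1a, Acadl, Acadm, Plin2, Plin3, Cidec and Pnpla2 had one in 3 strains. In cholesterol handling the counts were 15, 14, 15 and 9 of 15. Abca1 and Apoe, which carry cholesterol out of the cell, and Msr1, Scarb1, Npc1, Npc2, Lpcat3 and Scd2 were among those with one in every strain, and Abcg1, Mylip, Scd1, Soat1 and Srebf1 in 3.

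Genes of alternative activation had a gained peak at 20, 22, 22 and 18 of 23. These were in every strain the arginine handling genes Arg1 and Slc7a2, the lectin and receptor genes Mrc1, Mgl2 and Clec10a, the chemokine genes Ccl17 and Ccl24, and the transcription factor genes Irf4, Klf4 and Myc. Retnla, Tgm2, Cdh1, Mmp12, Pdcd1lg2, Atp6v0d2 and Tmem26 completed this group. Ccl22, Fbp1 and Msx3 had one in 3 strains and Chil3 in NOD only. Of 16 genes of the IL-4 receptor and JAK-STAT6 pathway, 15, 16, 13 and 13 had one, in every strain Stat6, Jak2, Jak3, Socs1, Socs3, Cish, Irs2, Ptpn6, Batf and Batf3, and in 3 strains Il4ra, Il13ra1, Jak1, Tyk2 and Socs2. Inflammatory genes gave 20, 20, 20 and 17 of 20, with Cx3cr1, Cxcl2 and Ifit1 at 3 strains. All 16 lineage and AP-1 factor genes, such as Spi1, Cebpa, Cebpb and Junb, had one in every strain. By nearest gene, the transcription factor gene Myc had 24 gained peaks in BALB, 33 in NOD, 15 in PWK and 8 in SPRET, and Klf4 had 18, 29, 18 and 10.

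The strongest peaks at Cd36, Arg1 and Fabp4 were shared rather than gained. An intronic peak 11.9 kb inside Cd36 (chr5:17876760-17876960 in BALB) was shared in all 4 strains, with 24 h scores of 108 in BALB, 154 in NOD, 109 in PWK and 71 in SPRET. The best gained peaks of Cd36 scored 15, 14, 8 and 22. Likewise, a peak 4.24 kb upstream of Arg1 (chr10:24931627-24931827 in BALB) was shared in all 4 strains at scores of 68, 121, 81 and 81. The best gained peaks near Arg1 differed in place, at 23.5 kb upstream in BALB (score 19), 42.9 kb downstream in NOD (55), 33.8 kb upstream in PWK (16) and 24.1 kb upstream in SPRET (8). A peak about 5 kb upstream of Fabp4, at 5.35 to 5.36 kb, was the best shared one in BALB (44), NOD (128) and SPRET (49), whereas in PWK the best was 3.66 kb upstream (26). Fabp4 gained a promoter peak in BALB (15) and in NOD (26).

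The class of an upstream site of Pparg differed between BALB and the other strains. The peak 17.1 kb upstream of its start was gained in BALB (chr6:115343711-115343911, score 22), shared in NOD (40) and shared in SPRET (16). The open region at that site also held a shared peak in PWK, where another peak 16.3 kb upstream was lost (basal score 9). SPRET gained an intronic peak 14.6 kb inside the gene (13), at which EGR2, STAT6, PU.1 and C/EBPb also had peaks at 24 h. Rxra had no PPARg peak within 50 kb in BALB, while NOD gained 5, PWK 3 and SPRET 2. Egr2 had gained peaks only in NOD (7) and PWK (3), and the best in PWK was 86 bp upstream of its start at a score of 14.

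Before the H3K27ac values, the libraries need a word. In every strain the second 24 h H3K27ac library had the smallest share of its reads in open regions. This share was 28.7% in BALB against 51.2 to 58.6% in the other 3 libraries, 42.0% in NOD against 54.0 to 63.0%, 38.1% in PWK against 53.5 to 55.2% and 39.6% in SPRET against 48.4 to 51.8%. Totals ranged from 5825127 reads (PWK basal replicate 1) to 20991422. The median change of all regions from basal to 24 h was −0.30 (BALB), −0.20 (NOD), −0.18 (PWK) and −0.09 (SPRET) on the log2(normalized tags + 1) scale. Scaling the libraries by their median ratio over the regions raised it by 0.32, 0.21, 0.20 and 0.08, to about 0. Fold changes below are on that log2 scale, which understates the change of low regions, and are to be read against these medians.

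Open regions with a gained PPARg peak were more often called higher in H3K27ac than open regions as a whole, although their typical change was near that of the rest. Over all regions, limma (Benjamini-Hochberg adjusted p under 0.05) called 1.6% higher and 0.653% lower in BALB. Of 12001 BALB regions with a gained peak 315 (2.62%) were higher and 74 (0.617%) lower. In NOD 0.0566% of all regions were higher and 0% lower, and 27 of 18936 gained regions were higher and 0 lower. At an unadjusted p under 0.05, limma found 1343 of these NOD regions lower and 1568 higher. Over all 68932 NOD regions it found 4765 lower and 3813 higher. After adjustment edgeR found 0 gained regions lower and DESeq2 66, against 0 and 276 of all regions. With the replicate number as a block in the model, limma called 2089 gained regions higher and 2677 lower. Over all regions the block gave 4458 higher and 9281 lower. The labels do not say what a replicate number shares. In PWK the background was 0.487% higher and 0.0482% lower, and 121 of 11402 gained regions (1.06%) were higher and 3 lower. In SPRET it was 0.994% and 0.192%, and 130 of 3795 gained regions (3.43%) were higher and 5 (0.132%) lower. The calls in NOD, PWK and SPRET needed both 24 h libraries, since limma called 0 gained regions higher without either one of them. Without basal replicate 1 the NOD, PWK and SPRET counts were 575, 181 and 31, and without basal replicate 2 they were 608, 421 and 62. In BALB limma called 307 higher when the weak 24 h replicate 2 was left out, and 186 when 24 h replicate 1 was. Dropping basal replicate 1 or 2 there left 129 or 224. BALB regions called lower numbered 956 without 24 h replicate 1, when the weak library alone stood for IL-4, and 15 to 43 when any other library was left out.

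A fold rule adapted from the study's methods, a 2.5-fold difference of the group means where either mean reaches 16 normalized tags, is a threshold without a test. It was applied to H3K27ac alone, while the study asked for a change in a further mark as well. By it 2.84% of all BALB regions were higher and 5.13% lower, against 5.09% and 5.23% of gained regions (611 and 628 regions, or 887 and 432 without 24 h replicate 2). In NOD 3.24% and 5.14% of all regions stood beside 6.34% and 5.01% of gained regions. In PWK 3.1% and 3.01% stood beside 5.12% and 1.92%, and in SPRET 2.64% and 0.939% beside 7.30% and 0.711%. The split of these calls moved with the scaling of the libraries. Of the calls at gained regions 49.3% were higher in BALB, 55.9% in NOD, 72.7% in PWK and 91.1% in SPRET, and after median-ratio scaling 76.6%, 73.2%, 86.4% and 93.8%. At regions with a shared peak a smaller part of the calls was higher, 20.7%, 23.4%, 42.4% and 68.8%, or 54.9%, 42.6%, 70.3% and 81.1% after scaling. Of these regions 1.73%, 2.28%, 2.34% and 2.75% were higher and 6.64%, 7.48%, 3.18% and 1.25% lower by the fold rule.

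Typical levels barely moved. The median H3K27ac of BALB gained regions was 62.5 and 60.2 normalized tags in the basal libraries and 67 and 39.5 at 24 h. The NOD medians were 42.4 and 39.7 before IL-4 and 40.5 and 36.6 after it. The PWK medians were 24.0 and 26.6, then 26.9 and 26.7. Those of SPRET were 54.7 and 59.9, then 63.5 and 59.2. Basal and 24 h libraries overlapped in BALB, NOD and SPRET, and in PWK both 24 h medians lay just above both basal ones. Set against regions without a PPARg peak in the same library, the gained regions' log2 median stood higher by 0.083 more at 24 h than in basal cells in BALB, 0.11 in NOD, 0.27 in PWK and 0.045 in SPRET. In PWK the basal medians of both kinds of region were identical, 24.0 and 26.6, since at the depth of that table they are whole reads. Two-sided exact permutation tests over the 4 libraries gave p = 0.667, 0.333, 0.333 and 1, where 0.333 is the smallest p that 2 against 2 libraries allow. The median of the regions' own log2 changes was −0.31 for gained regions and −0.28 for regions without a peak in BALB. It was −0.16 for both in NOD. The gained regions of PWK had −0.06 beside −0.17, and those of SPRET −0.01 beside −0.06. Regions with a shared peak had medians of −0.44, −0.38, −0.26 and −0.14, and those with a lost peak −0.41, −0.30, −0.43 and −0.21.

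**Figure D4:**
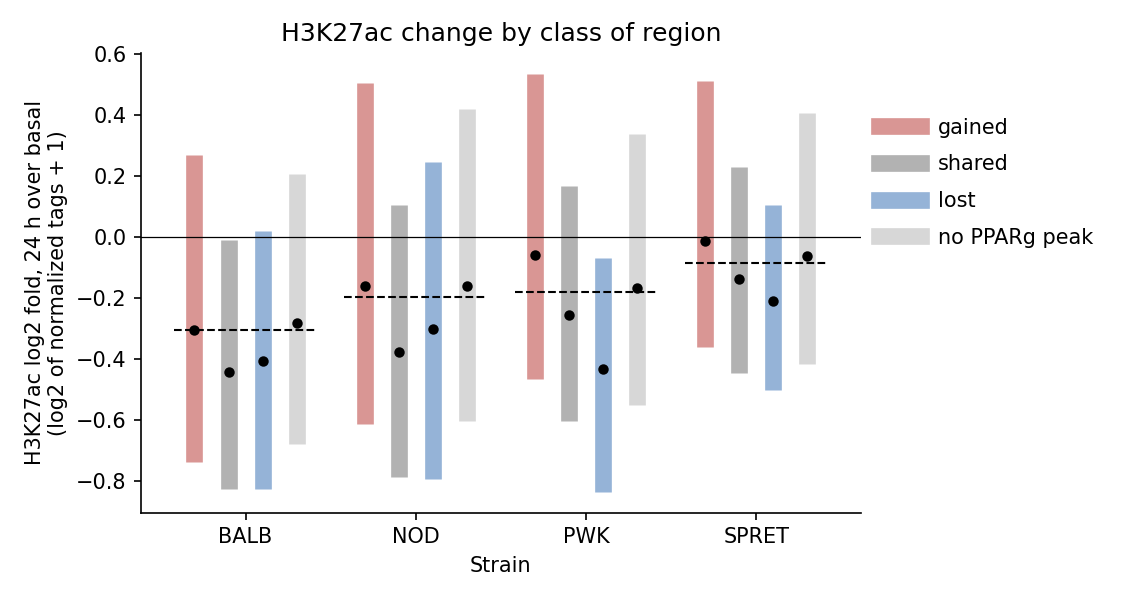
H3K27ac change from basal to 24 h (log2, 2 libraries per group) in open regions with a gained, shared, lost or no PPARg peak in each strain. Points are medians over regions, bars span the quartiles and dashed lines are the median of all regions of the strain. The medians of all classes lie between −0.44 and −0.01, and the gained class is the highest or level with regions without a peak except in BALB.

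The share of gained regions that were higher by the fold rule differed with the factors found beside the PPARg peak. In some regions the gained PPARg peaks overlapped both an EGR2 and a STAT6 peak at 24 h. Of these regions 8.78% were higher in BALB, 15.4% in NOD, 13.5% in PWK and 11% in SPRET. Of the other gained regions 3.99%, 5.26%, 4.03% and 5.16% were higher. Lower were 5.81%, 2.31%, 1.22% and 0.431% of the former, against 5.06%, 5.34%, 2.01% and 0.874% of the latter. The same gained regions were also split by a gained PPARg peak that overlapped an EGR2 peak at 24 h but none in basal cells. This split is therefore not independent of the one before. With such a peak the shares higher were 7.59%, 16.1%, 12.3% and 12%, against 4.83%, 6.13%, 4.22% and 5.55% of gained regions without it. Gained regions at promoters were seldom higher, at 0.937%, 1.51%, 1.23% and 0.971%, against 5.73%, 7.13%, 5.81% and 8.29% of the others. They were also seldom lower, at 2.19%, 1.47%, 0.467% and 0.194% against 5.70%, 5.59%, 2.18% and 0.793%. A DR1 match made a smaller difference, with 6.27%, 6.42%, 8.26% and 10.0% against 5.00%, 6.34%, 4.99% and 7.13%. With the CTCF core the shares were 2.08%, 1.67%, 1.23% and 2.78%, against 5.24%, 6.53%, 5.84% and 7.39%. The shares lower with the core were 1.91%, 1.67%, 0.898% and 0%, against 5.40%, 5.14%, 2.11% and 0.725%. These shares are descriptions, as regions of the same libraries are not replicates.

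Regions at the loci gained in all 4 strains were higher more often than gained regions as a whole. They numbered 282 in BALB, 294 in NOD, 256 in PWK and 228 in SPRET, with median log2 changes of 0.14, 0.35, 0.30 and 0.37. By the fold rule 16.3%, 20.1%, 21.5% and 21.9% were higher, against 5.09%, 6.34%, 5.12% and 7.30% of all gained regions. Limma called 30, 5, 11 and 28 of them higher and 0 lower in each strain. Of all gained regions it called 2.62%, 0.143%, 1.06% and 3.43% higher.

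At single loci the response was clear in some and absent in others. The Ankrd55 locus went from 11.8 and 17.9 normalized tags in BALB basal cells to 240.2 and 149 at 24 h, from 17.5 and 19.8 to 229 and 245 in NOD, from 32.6 and 76.0 to 492 and 266 in PWK, and from 29.1 and 32.3 to 272 and 194 in SPRET. It rose in all 4 strains by limma, by 3.62 in BALB (adjusted p = 7.84e-06), 3.60 in NOD (0.0482), 2.83 in PWK (0.0214) and 2.87 in SPRET (0.000691) on the log2 scale. In each strain leaving out 1 library could end this call. In NOD and PWK it also failed under edgeR (edgeR adjusted p 0.0672 and 0.0516) and under limma with median-ratio scaling (limma adjusted p 0.0518 and 0.0586). The Mpp6 locus went from 4.41 and 4.77 to 111 and 53.4 in BALB (log2 change 3.80, limma adjusted p = 1.2e-08), a call that held with every library left out. Its log2 change was 3.78 in NOD (limma adjusted p = 0.0514), 2.08 in PWK (0.285) and 1.57 in SPRET (0.124), and these did not pass.

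The Fads3 locus, the best-ranked of all, was already high in basal cells, at 273 and 469 normalized tags in BALB and 362 and 625 in NOD. Its log2 changes of 0.12, 0.14, 0.93 and 1.21 in BALB, NOD, PWK and SPRET did not pass limma (adjusted p 0.973, 0.898, 0.553 and 0.129). The Tlr4 locus had changes of 0.40, 1.24, 0.91 and 0.99, none of which passed. At the DR1 site of Itgax, SPRET went from 25.6 and 95.5 to 203 and 221, a rise of 2.07 (limma adjusted p = 0.0410), while the changes in NOD (3.15) and PWK (3.27) did not pass. The region of the Spp1 site stayed low, at 2.20 and 4.17 then 6.02 and 4.29 in BALB and 6.84 and 7.90 then 31.7 and 28.0 in SPRET, and its change passed in no strain.

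**Figure D5:**
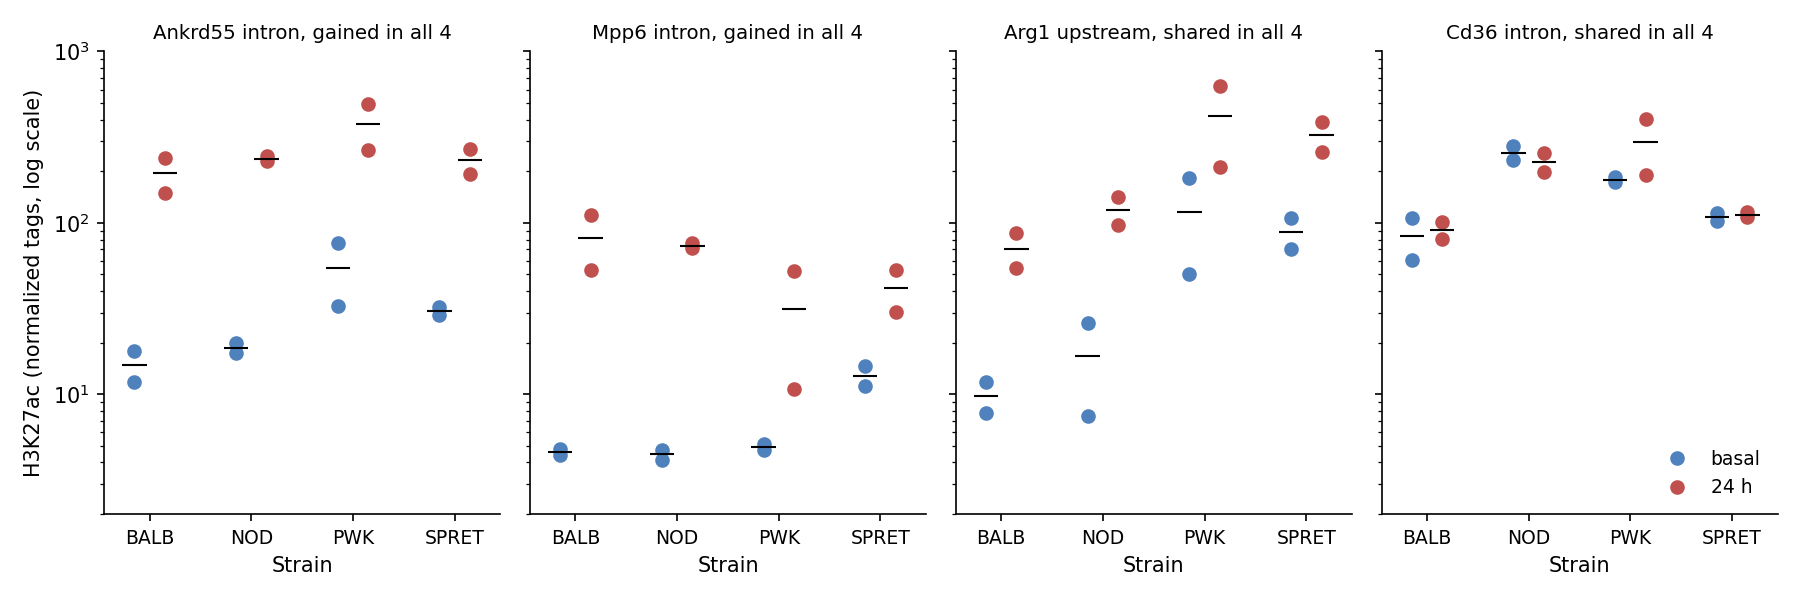
H3K27ac in each library (normalized tags, log axis) at the regions of the Ankrd55 and Mpp6 loci gained in all 4 strains and of the Arg1 and Cd36 peaks shared in all 4, basal and 24 h; each point is 1 library and each line the mean of 2. At the Ankrd55 locus both 24 h libraries lie above both basal libraries in all 4 strains.

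The largest rises at gained regions were from nearly nothing. In BALB a region nearest Ang5, a ribonuclease family gene (chr14:43966895-43967895), went from 2.94 and 2.38 to 395 and 130.1 normalized tags, a log2 rise of 5.96 (limma adjusted p = 1.34e-20). A region in an intron nearest Taf11, a subunit gene of the general transcription factor TFIID (chr17:27967651-27968651), went from 0.73 and 1.19 to 98.6 and 75.8. With 3 reads over the basal libraries against 290 at 24 h, the ratio was 85.7 (exact 95% interval 29.0 to 418, counting error only; limma adjusted p = 2.02e-18). In NOD the largest were a region in an intron of Tmem26, a gene of a membrane protein used as an alternative activation marker, from 0.83 and 0 to 89.0 and 63.0, and one in an intron of the cytokine receptor gene Il31ra, from 3.32 and 0.79 to 114 and 172. The Il31ra rise was 5.66 on the log2 scale, and the Tmem26 ratio was 183 (1 against 235 reads, interval 32.6 to 7266). Both had a limma adjusted p of 0.0454. In PWK the Tmem26 region went from 1.72 and 0.78 to 162 and 84, a ratio of 121 (2 against 329 reads, interval 33.2 to 1002, limma adjusted p = 0.00147). A region nearest Pmch, 66 kb away, went from 0 and 0 to 135 and 28.6, at least 56.5-fold higher with a floor of 3 reads over the basal group (limma adjusted p = 0.00236). In SPRET a region 9.77 kb from Fbp1, which encodes the gluconeogenic enzyme fructose bisphosphatase, went from 0 and 1.32 to 108 and 49.5, a ratio of 110.1 (2 against 169 reads, interval 30.0 to 917, limma adjusted p = 0.000247). An intronic region of the deubiquitinase gene Usp20 rose from 0.85 and 1.98 to 91.7 and 66.8 (5.08, limma adjusted p = 0.000185). The Tmem26 region was thus among the largest rises in both NOD and PWK.

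By limma without the replicate block, falls at gained regions were fewer than rises and smaller. In BALB a region nearest Cap1, an actin regulator, fell from 53.6 and 81 to 8.28 and 7.62 (log2 −2.90, limma adjusted p = 8e-05), and one in an intron of the stress kinase gene Map3k5 fell from 67.6 and 85.2 to 9.04 and 11.4 (−2.78, 0.000312). In NOD no fall passed limma without the block. The largest by the fold rule were at the paired receptor genes Pilrb1, from 121 and 109 to 10.8 and 10.7 (−3.30, limma adjusted p = 0.0641), and Pilra, from 160 and 110.3 to 18.1 and 14.6 (−2.95, 0.0885). In PWK an intron region of Kank1 fell from 194 and 128 to 29.0 and 24.8 (−2.51, limma adjusted p = 0.0240), and one of Nipal3 went from 17.2 and 14.1 to 0 and 0, at least 12.7-fold lower with a floor of 3 reads over the 24 h group (0.0191). In SPRET regions nearest Ada, which encodes adenosine deaminase, and Eps8 fell by 1.85 (limma adjusted p = 0.0287) and 1.88 (0.0452). Of the called regions named here, 28 in BALB, 4 in NOD, 11 in PWK and 16 in SPRET, those that passed with every library left out numbered 10, 0, 0 and 0. Of the same regions edgeR called 28, 0, 7 and 13 and DESeq2 28, 4, 10 and 15.

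Gained regions near alternative activation genes had the largest median change of the lists. The paper describes alternative activation as a program that IL-4 drives, and Arg1, Slc7a2 and Msx3 are among its examples of induced genes. Regions near the same genes without a gained peak were not compared, so nothing particular to PPARg is drawn from this change. The median was 0.52 in BALB, 0.95 in NOD, 1.22 in PWK and 1.03 in SPRET, against −0.31, −0.16, −0.06 and −0.01 over all gained regions. Limma called 12 of 51 gained regions near these genes higher in BALB, 2 of 77 in NOD, 3 of 38 in PWK and 7 of 22 in SPRET. Over all gained regions it called 2.62%, 0.143%, 1.06% and 3.43% higher. A region 2.94 kb from the homeobox gene Msx3 went from 5.14 and 2.38 to 195 and 120.1 in BALB (log2 5.08, limma adjusted p = 3.97e-15) and from 3.32 and 4.76 to 267 and 167 in NOD (5.41, 0.0454). A region 34.4 kb from Irf4, a factor of alternative activation, rose in BALB from 4.41 and 8.94 to 97.9 and 92.4 (3.71) and in SPRET from 8.55 and 7.90 to 219.5 and 140.0 (4.26). Regions near Klf4 rose in BALB (3.67), PWK (2.65) and SPRET (2.03). Regions near Slc7a2, the arginine transporter gene, rose in BALB (3.34 and 2.86) and PWK (2.99), and those near Mgl2 in BALB (2.78 and 2.71) and SPRET (1.71).

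For the IL-4 receptor and JAK-STAT6 list the medians were −0.18, −0.07, 0.14 and 0.65. Limma called 6 of 47, 0 of 61, 3 of 38 and 2 of 18 gained regions higher, against 2.62%, 0.143%, 1.06% and 3.43% over all gained regions. Regions near Jak2, the kinase gene, rose in BALB (3.24 and 1.94), PWK (3.51) and SPRET (3.19). Those near Cish, a feedback inhibitor of cytokine signalling, rose in BALB (2.46) and PWK (4.54), and that at the promoter of Socs1, another feedback inhibitor, in PWK (3.04). Batf3 regions rose in BALB (4.49 and 2.29) and SPRET (1.98), and a Batf region in BALB (2.65). These are AP-1 family partners of Irf4.

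In each of the other lists limma called 1 gained region over the 4 strains. Over all gained regions limma called 2.62%, 0.143%, 1.06% and 3.43% higher and 0.617%, 0%, 0.0263% and 0.132% lower. Medians of the fatty acid list, with 46, 57, 40 and 15 gained regions, were −0.34, −0.10, 0.11 and 0.32, and its only call was a region inside Cd36 in PWK, which rose from 15.4 and 16.4 to 230.3 and 103 (log2 3.20, limma adjusted p = 0.00878). In BALB the corresponding Cd36 region had 42.6 and 101.9, then 166 and 98.1 (0.94, limma adjusted p = 0.682). The shared Cd36 peak's region changed by 0.16, −0.19, 0.63 and 0.04, and the shared Fabp4 region by 1.21 in BALB, 1.23 in NOD and 0.82 in SPRET, none of which passed. In the cholesterol list, with 48, 55, 40 and 14 gained regions (medians −0.31, −0.14, 0.51 and 0.04), the only call was near Scd1, the stearoyl desaturase gene, in BALB (2.12). Nuclear receptor genes (−0.34, −0.50, −0.46 and −0.20) had 1 call, a region inside Ppard that fell in BALB from 106 and 211 to 24.1 and 31.4 (−2.40, limma adjusted p = 0.0210). Inflammatory genes (−0.47, −0.50, −0.50 and 0.05) had 1, near Irf1 in SPRET (2.51). By the fold rule 10 of 61 inflammatory regions were lower and 2 higher in BALB, and 12 and 4 of 65 in NOD. In PWK 9 and 3 of 54 were, and in SPRET 0 and 2 of 21. Of all gained regions 5.23%, 5.01%, 1.92% and 0.711% were lower by this rule and 5.09%, 6.34%, 5.12% and 7.30% higher. EdgeR called 3 inflammatory regions lower in BALB, and 69 of all 12001 gained regions there. Lineage and AP-1 genes (−0.23, −0.01, 0.19 and 0.12) had 1, near Bhlhe40 in BALB (3.31).

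At Arg1 the region of the shared upstream peak rose in BALB and SPRET. It went from 11.8 and 7.74 to 87.3 and 54.3 in BALB (log2 2.73, limma adjusted p = 0.000388) and from 70.1 and 107 to 389 and 258 in SPRET (1.86, 0.0174). In NOD it went from 7.48 and 26.2 to 97.6 and 141 (2.96, limma adjusted p = 0.149) and in PWK from 182 and 50.1 to 631 and 212 (1.92, 0.239). Within each of the 4 strains both 24 h libraries were above both basal libraries. The region 22.9 kb upstream with a gained peak rose in BALB (2.12, limma adjusted p = 0.0131) and had a change of 1.83 in NOD (0.243).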

How the data were processed

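PPARg, EGR2, STAT6, PU.1 and C/EBPb ChIP-seq peak lists and histone mark tables of BALB, NOD, PWK and SPRET macrophages were used. Per the study's methods and the submitters' processing notes, the authors aligned reads with Bowtie2 to each strain's genome, shifted coordinates to mm10, called peaks of 200 bp with HOMER and kept those reproducible between replicates (IDR). The deposited peak score was used as given, and the deposited tag count of a peak is a signal whose scaling is not stated. The signal of H3K27ac, Pol II and H3K4me2 is, per the file headers, the normalized tags in regions of 1000 bp around open chromatin peaks, which the authors scaled to 10000000 tags per library. Versions of these tools are not printed here, and no column of the authors' own comparisons was used.

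Peaks were joined at 1 bp of overlap and annotated with GENCODE vM21 (promoter within 1000 bp of a transcript start). Motifs were searched in RefSeq GRCm38 sequence. H3K27ac was tested per strain, 2 against 2 libraries, with limma 3.58.1 (R 4.3.3) on log2(normalized tags + 1) over all regions, with Benjamini-Hochberg adjustment and a threshold of 0.05. Whole reads were recovered within 0.1 read for 100% of the normalized tags and tested with edgeR 4.0.16 and DESeq2 1.42.0 as alternatives. The limma script was tested on simulated data. Other steps used Python 3.11.15, pandas 2.3.3, numpy 2.4.6, scipy 1.17.1, pysam 0.24.0 and matplotlib 3.10.9. Library totals were 5825127 to 20991422 reads for H3K27ac. Shares carry exact binomial 95% intervals.

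The named items were the 6 loci gained in all 4 strains with the best mean rank; the best gained, shared, lost and strain-limited gained peak of each strain; the 2 largest rises and 2 largest falls past limma, or else past the fold rule; listed genes with a gained peak in at least 3 strains or exactly 1; Pparg, Rxra, Cd36, Fabp4, Arg1 and Egr2; and up to 8 DR1 sites, none on chromosome 18. Some items that this rule names are not reported here. Of 133 listed genes 131 had a GENCODE match. The members, lists and motifs were chosen with earlier results of these data known. Alternatives were the overlap, list length, motif stringency, pseudocount, low-value filter, scaling, fold, replicate block, count tests, leaving out each library and leaving out peaks with the CTCF core.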

Additional observations from a re-analysis of the deposited data

How the results depend on the processing

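In all, 230 values were recomputed under an alternative; 109 stayed within the spread or within 1.5 times the count given, 119 moved further and 2 changed sign. The gained share for BALB, NOD, PWK and SPRET was 81.1%, 76.6%, 72.7% and 44.7% with at least 100 bp of overlap, 77.9%, 72.9%, 68.4% and 35.2% with peak centres within 500 bp, 45.1%, 39.1%, 53.1% and 40.4% with both lists cut to the shorter length, and 75.9%, 71.7%, 71.7% and 30.8% among peaks above the median score of each list. Gained peaks with an EGR2 peak were 20.6%, 11.2%, 4.58% and 25.5% at 100 bp of overlap, and 5.26%, 4.84%, 2.45% and 6.39% with the 5000 best EGR2 peaks. With 1 mismatch DR1 was in 3.48%, 4.35%, 1.21% and 2.80%. Without the peaks that held the CTCF core, chosen after seeing the data, the gained share in PWK was 64.9%, the EGR2 share 29.6% in BALB and 8.99% in PWK, and the DR1 share 11.9% in BALB and 6.25% in PWK. Loci gained in all 4 strains numbered 136 among peaks above the median score. The cause of these moves was not tested, beyond the smaller number of peaks that the list cuts leave.

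Counts of gained regions called higher by limma became, with median-ratio scaling, 485 in BALB, 0 in NOD and 49 in PWK. DESeq2 called 515 in BALB, 555 in NOD and 206 in PWK, and edgeR 0 in NOD and 65 in PWK. In NOD a pseudocount of 5 gave 50 and a filter of 16 normalized tags 71. Counts called lower were 143 (BALB), 66 (NOD), 10 (PWK) and 13 (SPRET) by DESeq2, 0 in PWK and 1 in SPRET by edgeR, 0 in PWK and in SPRET with median-ratio scaling, 1 (NOD), 9 (PWK) and 14 (SPRET) with the filter, and 10 in SPRET with a pseudocount of 5. With 1 library left out, called higher ranged from 129 to 307 in BALB, 0 to 608 in NOD, 0 to 421 in PWK and 0 to 62 in SPRET. Called lower ranged from 15 to 956 in BALB, 0 to 110 in NOD, 0 to 39 in PWK and 0 to 0 in SPRET; the lone library left in a group was then assumed to vary like the other group.

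By the fold rule, higher counts moved only to 934 in PWK without the tag minimum and to 425 in SPRET with a fold of 2, and with 1 library left out ranged from 423 to 887 in BALB, 1223 to 1686 in NOD, 611 to 878 in PWK and 240.0 to 380 in SPRET. Lower counts were 264 (BALB), 575 (NOD) and 122 (PWK) with median-ratio scaling, 1430, 1986, 543 and 101 with a fold of 2, 131 (PWK) and 16 (SPRET) with a pseudocount of 5, and with 1 library left out 432 to 2335, 1033 to 1752, 300 to 549 and 25 to 68. The median log2 change at gained regions minus that at regions without a peak was 0.11 in PWK, and 0.087 with a pseudocount of 5, 0.088 with the filter and 0.10 with median-ratio scaling, which was chosen after seeing the data. In NOD it was −0.00 and became 0.12 with the filter. With 1 library left out it ranged from −0.08 to 0.03 in BALB, −0.032 to 0.032 in NOD, 0.075 to 0.14 in PWK and 0.00 to 0.10 in SPRET.

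The labels number the libraries 1 and 2 in each group but do not say what a number shares. Deviations of same-numbered libraries correlated at 0.43 in BALB, 0.49 in NOD, 0.44 in PWK and 0.26 in SPRET. With the replicate block limma called 675, 2089, 812 and 394 gained regions higher and 437, 2677, 363 and 85 lower. Shares of weak peaks are limited by the unknown depth of the PPARg libraries.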

Other observations

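Other marks were read at the open regions with a gained PPARg peak. Median Pol II was 23.6, 21.9 and 13.1 normalized tags in the 3 basal BALB libraries and 25.6 and 23.8 at 24 h. In NOD it was 16.9 and 15.1, then 18.1 and 16.2. PWK had 15.5, 14 and 12.9, then 16.5, 14 and 16.2, and SPRET 24.2, 21.3 and 21, then 25.4, 21.9 and 19.4. In BALB both 24 h libraries lay above all basal ones, and in the other 3 strains the groups overlapped. Median H3K4me2, a mark of enhancers and promoters, was 49.0 and 54.2 in basal BALB libraries and 48.7 and 23.3 at 24 h, 36.4 and 47.0 then 34.5 and 33.7 in NOD, 44.8 and 46.7 then 48.2 and 39.2 in PWK, and 46.9 and 51.2 then 36.0 and 34.8 in SPRET. Both 24 h libraries were below both basal ones in BALB, NOD and SPRET. Over all open regions the H3K4me2 medians were 46.6 and 53.5 then 45.8 and 22.5 in BALB, 33.6 and 43.5 then 31.2 and 30.5 in NOD, 49.0 and 52.3 then 50.3 and 40.9 in PWK, and 40.4 and 46.2 then 31.4 and 31.0 in SPRET, so both 24 h libraries were below both basal ones in the same 3 strains. These medians were not tested, and no library was left out.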
